A study of Mus musculus with 8 samples.

Results

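The signals of 10 genes that serve as markers of astrocytes were followed across the 8 arrays of the series: Gfap, S100b, Aqp4, Aldh1l1, Slc1a2, Slc1a3, Gja1, Gjb6, Glul and Sox9. The members were all probes that carry one of these symbols in the deposited probe annotation, which gave 29 of the 56605 probes of the array and 10 of its 26894 gene symbols. A probe was tested where its signal was well above background on both arrays of at least 1 group, which held for 23 of the 29 and for 40001 probes in all. Astrocytes are the glial cells that clear glutamate and potassium from around synapses, convert glutamate to glutamine for the neurons, share solutes through gap junctions and cover blood vessels with processes rich in water channels. In the dentate gyrus, the radial stem cells that give rise to new granule neurons also express several of these genes, Gfap, Slc1a3 and Sox9 among them, so a signal from whole tissue is not that of astrocytes alone. In bulk tissue, fewer cells of a type and less RNA per cell cannot be told apart.

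Each of 4 groups had 2 arrays, with RNA from the dentate gyrus. The mice were male C57BL/6 animals, 8 to 9 weeks old. Derlin-1 control mice were Derlin-1 flox/flox and Derlin-2 control mice were Derlin-2 flox/flox, and neither group carried Cre. The KO mice of either line carried in addition a Cre recombinase driven by the nestin promoter, which is active in the precursors of both neurons and astrocytes, so deletion of a Derlin and presence of Cre cannot be told apart within a line. The groups rest on the sample titles, because their genotype entries give the floxed alleles for KO samples too. The comparison of KO with control asks whether loss of either Derlin, both membrane proteins of the pathway that removes misfolded proteins from the endoplasmic reticulum, came with a difference in the astrocyte genes of this tissue. Nothing in the labels says that the 2 arrays of a group came from separate animals, so p-values measure the spread between these samples, which may be technical. All 4 arrays of a line lay on 1 slide, with both lines on separate slides, so KO and control were compared within a slide and line and slide cannot be told apart.

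As a check of the labels, the brighter Derl2 probe (A_51_P498831) read 11.36 and 11.22 on the Derlin-2 control arrays and 10.63 and 10.65 on the Derlin-2 KO arrays, in normalized log2 signal, a difference of -0.65 (SE 0.10, limma adjusted p = 0.257). Both Derl2 probes were lower on both KO arrays of that line than on both of its control arrays. In the Derlin-1 line, the brighter Derl1 probe (A_51_P504522) read 10.86 and 10.76 in Derlin-1 controls and 10.56 and 10.65 in Derlin-1 KO, a difference of -0.20 (SE 0.10), whereas the dimmer one (A_65_P08342) was higher in KO by 0.46 (SE 0.12). Where these probes lie relative to the deleted part of the gene is not given in the sources used here. The Derl1 signal on these arrays therefore does not by itself check the labels of the Derlin-1 line, and every direction given for Derlin-1 KO is that of the arrays labelled Derlin-1 KO. Between 67.6% and 70.8% of probes were well above background, depending on the array. Arrays of a group correlated at 0.987 to 0.995, KO arrays with controls of their line at 0.988 to 0.993, and arrays of different lines at 0.965 to 0.985.

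The tables of RefSeq promoters (build GRCm38.p6) held the stretch before the transcription start for 8 of the 10 markers; Aqp4 and Sox9 had no entry. The 250 bases before the start are shown for S100b and Aldh1l1, since these were the markers with both KO arrays below both control arrays in both lines. The capitals mark the letters CCAAT, the core of the CCAAT box, on either strand, so ATTGG marks a match on the other strand. S100b lies at chr10:76253586-76253835 on the plus strand and Aldh1l1 at chr6:90550543-90550792 on the plus strand.
S100b: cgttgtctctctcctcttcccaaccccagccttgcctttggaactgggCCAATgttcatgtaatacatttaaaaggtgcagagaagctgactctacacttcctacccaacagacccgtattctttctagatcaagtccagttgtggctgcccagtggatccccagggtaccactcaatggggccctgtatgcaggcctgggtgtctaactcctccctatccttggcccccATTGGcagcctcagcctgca
Aldh1l1: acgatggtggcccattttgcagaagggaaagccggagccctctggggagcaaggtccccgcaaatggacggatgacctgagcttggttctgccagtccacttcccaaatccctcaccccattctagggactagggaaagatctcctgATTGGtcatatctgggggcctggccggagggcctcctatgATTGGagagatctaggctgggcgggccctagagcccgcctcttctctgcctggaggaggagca
Both promoters held CCAAT at 2 places, beginning 202 and 20 bases before the start in S100b and 103 and 63 bases before it in Aldh1l1. Among the 8 markers with a promoter, 4 held it (also Glul and Slc1a3), and it was in 33.8% of the 32851 mouse promoters of the same length. The letters TTGGC, a core of sites bound by nuclear factor I, were in 3 of the 8 (S100b, Slc1a2 and Glul) and in 41.5% of all promoters, and they can overlap CCAAT, since a stretch such as ATTGGC matches both. The letters TTCNNNGAA, the core of sites bound by STAT factors, were in 1 of the 8 (Slc1a3) and in 7.02% of all. The arrays did not measure binding, and these matches are a description of the sequence only.

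All 10 markers were plainly detected, and none passed the test in either line. The brightest tested probe of every marker was well above background on all 8 arrays, with signals between 5.22 and 11.84 on the log2 scale above the dimmest probe called well above background on the same array. KO was set against control with limma, on all 8 arrays, with p-values adjusted by Benjamini-Hochberg over all probes tested. In the Derlin-1 line no probe at all had an adjusted p under 0.05 (0% of 39981, smallest adjusted p 0.31, 1874 probes at an unadjusted p under 0.05). In the Derlin-2 line 18 of 39812 probes did (0.0452%), and none of the 23 marker probes was among them. At an unadjusted p under 0.05, 2 of the 23 marker probes were found for Derlin-1 and 2 for Derlin-2. Of all probes, 1874 of 39981 and 2192 of 39812 reached this level. Counted by the brightest probe of each gene, 0 of 10 markers reached this level in either line, where 4.25% and 4.64% of all genes did. For 2 arrays against 2, the smallest two-sided p that an exact permutation test allows is 0.333, so the tests rest on the spread that limma shares across probes.

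Counted by the brightest probe, 4 markers were higher and 6 lower in Derlin-1 KO, with a median log2 difference of -0.03 where the median of all genes was -0.02. In Derlin-2 KO 5 were higher and 5 lower, with a median of -0.05 where all genes had 0.01, and without Derlin-2 KO 2 the marker median was 0.03. Both KO arrays lay above both controls for 1 marker (Gfap) and below them for 4 (S100b, Aqp4, Aldh1l1 and Sox9) in the Derlin-1 line, where 16.2% and 17.9% of all genes did so. In the Derlin-2 line they lay above for 2 (Aqp4 and Sox9) and below for 5 (S100b, Aldh1l1, Slc1a3, Gjb6 and Glul), where 17.9% and 14.6% of all genes did so. S100b and Aldh1l1 lay below in both lines, which 2.9% of all genes did, none of the 10 lay above in both (2.85% of all genes), and Aqp4 and Sox9 lay apart in opposite directions, which 5.64% of all genes did.

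**Figure D1:**
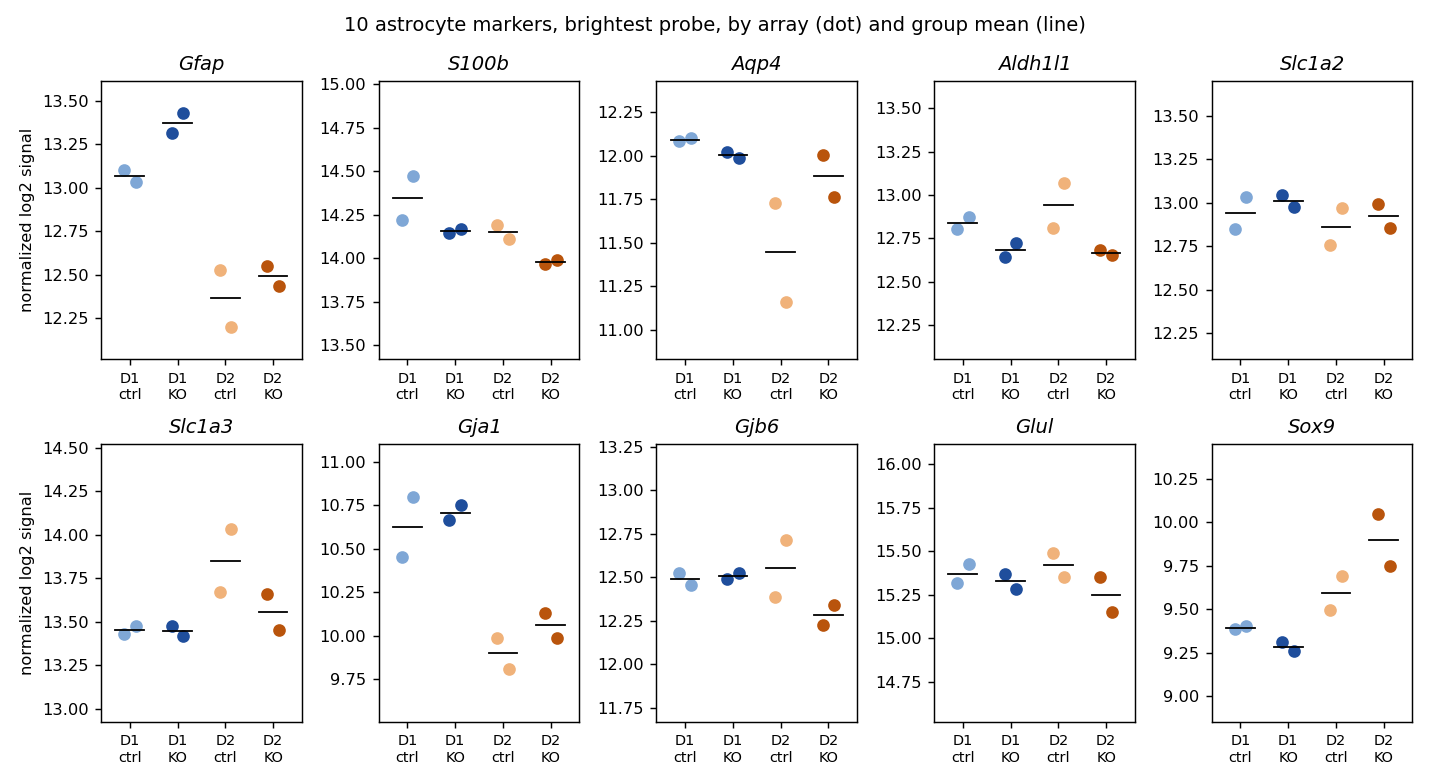
Normalized log2 signal (vertical axis, 1.6 log2 units in every panel) of the brightest probe of each of the 10 astrocyte markers in the 4 groups (D1, Derlin-1 line; D2, Derlin-2 line; ctrl, control), with 1 dot an array and a line at each group mean. The Derlin-1 KO dots of Gfap lie above all other arrays, the KO dots of S100b and Aldh1l1 lie below the controls of their line, and the Derlin-2 control dots of Aqp4, Slc1a3 and Gjb6 lie far apart.

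Gfap encodes the intermediate filament of astrocytes, which is abundant in radial stem cells and in reactive astrocytes. Its brightest probe (A_52_P52303) read 13.10 and 13.03 in Derlin-1 controls, 13.31 and 13.43 in Derlin-1 KO, 12.53 and 12.20 in Derlin-2 controls and 12.55 and 12.43 in Derlin-2 KO. Both Derlin-1 KO arrays were above both of their controls, and the groups of the Derlin-2 line overlapped. The difference was 0.30 (SE 0.14, 95% CI -0.03 to 0.64, limma adjusted p = 0.9999) for Derlin-1 and 0.13 (SE 0.14, 95% CI -0.21 to 0.46) for Derlin-2. The second Gfap probe (A_55_P2157250), which the annotation assigns to another transcript (NM_010277 against NM_001131020), read 11.39 and 11.39 in Derlin-1 controls and 11.72 and 11.84 in Derlin-1 KO. There the difference was 0.39 (SE 0.15, 95% CI 0.02 to 0.76, limma adjusted p = 0.9999), larger than the 0.12 that separated its 2 KO arrays. This probe differed by 0.03 (SE 0.15, 95% CI -0.34 to 0.41) in the Derlin-2 line. The Derlin-1 and Derlin-2 differences of the brightest probe were themselves 0.18 apart (95% CI -0.30 to 0.66, limma adjusted p = 0.957), so they were not shown to differ between the lines.

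S100b, a calcium-binding protein of mature astrocytes, had 1 probe, and Aldh1l1, an enzyme of folate metabolism found across astrocytes, had 2. S100b read 14.22 and 14.47 in Derlin-1 controls and 14.14 and 14.17 in Derlin-1 KO, with 14.19 and 14.11 in Derlin-2 controls and 13.96 and 13.99 in Derlin-2 KO. Both KO arrays were the lower ones in both lines, with a mean difference of -0.19 (SE 0.12, 95% CI -0.48 to 0.10) for Derlin-1 and -0.18 (SE 0.12, 95% CI -0.46 to 0.11) for Derlin-2. Without Derlin-1 control 2 the Derlin-1 difference of S100b was -0.06. The brighter Aldh1l1 probe (A_55_P1983733) read 12.80 and 12.87 in Derlin-1 controls, 12.64 and 12.73 in Derlin-1 KO, 12.81 and 13.07 in Derlin-2 controls and 12.68 and 12.65 in Derlin-2 KO. Its differences were -0.15 (SE 0.12, 95% CI -0.44 to 0.14) and -0.27 (SE 0.12, 95% CI -0.56 to 0.02), the latter -0.14 without Derlin-2 control 2. The mean of the differences of both lines was -0.21 (SE 0.08, 95% CI -0.42 to -0.01, limma adjusted p = 0.9998) for Aldh1l1 and -0.18 (SE 0.08, 95% CI -0.38 to 0.02, limma adjusted p = 0.9998) for S100b. Aldh1l1 was the only one of the 10 markers at an unadjusted p under 0.05 for this mean, where 4.53% of all genes reached it, and 0.0151% of probes passed the adjusted threshold. The dim Aldh1l1 probe (A_66_P128931) had differences of -0.21 (SE 0.20) for Derlin-1 and 0.01 (SE 0.20) for Derlin-2, the latter too near 0 to give a direction.

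Slc1a2 and Slc1a3 encode GLT-1 and GLAST, the glutamate transporters of astrocytes, and Glul encodes glutamine synthetase, which turns the glutamate taken up into glutamine. Slc1a2 (A_52_P168496) read 12.85 and 13.03 in Derlin-1 controls, 13.05 and 12.97 in Derlin-1 KO, 12.76 and 12.97 in Derlin-2 controls and 13.00 and 12.85 in Derlin-2 KO. The groups overlapped in both lines, with differences of 0.07 (95% CI -0.24 to 0.38) and 0.06 (95% CI -0.25 to 0.37). The brightest Slc1a3 probe (A_66_P104552) read 13.43 and 13.48 in Derlin-1 controls and 13.48 and 13.42 in Derlin-1 KO, an overlap with a difference of -0.01 (SE 0.15). Derlin-2 controls read 13.67 and 14.03 and Derlin-2 KO arrays 13.66 and 13.45, a difference of -0.30 (SE 0.15, 95% CI -0.66 to 0.07), which is smaller than the 0.36 between the 2 control arrays. Without Derlin-2 control 2 the difference was -0.12.

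A second Slc1a3 probe (A_52_P378975), annotated to the transcript ENSMUST00000153455, had the largest differences relative to their error of the 23 marker probes in both lines. It read 8.30 and 8.30 in Derlin-1 controls, 8.71 and 8.70 in Derlin-1 KO, 8.33 and 8.26 in Derlin-2 controls and 7.97 and 7.76 in Derlin-2 KO. The replicates lay close together, both KO arrays were above the controls in the Derlin-1 line and both were below them in the Derlin-2 line. The differences were 0.41 (SE 0.11, 95% CI 0.15 to 0.67, limma adjusted p = 0.9999) and -0.43 (SE 0.11, 95% CI -0.69 to -0.17, limma adjusted p = 0.593). The difference between the lines was 0.84 (SE 0.15, 95% CI 0.47 to 1.20, limma adjusted p = 0.531), so none of the 3 passed the adjusted threshold; over all probes 0.00754% did for the difference between the lines. The brightest Slc1a3 probe had 0.29 (SE 0.21) for the same contrast. None of the 10 markers by its brightest probe reached an unadjusted p under 0.05 for the difference between the lines, where 4.5% of all genes did.

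The brightest Glul probe (A_55_P2142146) read 15.32 and 15.43 in Derlin-1 controls, 15.37 and 15.28 in Derlin-1 KO, 15.49 and 15.35 in Derlin-2 controls and 15.35 and 15.15 in Derlin-2 KO. Neither Derlin-2 KO array was above a Derlin-2 control, with a mean difference of -0.17 (SE 0.12, 95% CI -0.46 to 0.12), and the Derlin-1 groups overlapped with a difference of -0.05 (SE 0.12). A second Glul probe (A_66_P134479) had differences of -0.01 and -0.06 (SE 0.15 in each line), and the third (A_52_P143866) had -0.27 and 0.10 (SE 0.21 in each line). Their groups overlapped in both lines.

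Aqp4 encodes the main water channel of the brain, which sits in the processes that astrocytes wrap around vessels. Its brightest probe (A_55_P2031939) read 12.08 and 12.10 in Derlin-1 controls and 12.02 and 11.99 in Derlin-1 KO, with both KO arrays below both controls and a mean difference of -0.09 (SE 0.20, 95% CI -0.57 to 0.40). It read 11.73 and 11.16 in Derlin-2 controls and 12.01 and 11.76 in Derlin-2 KO, with both KO arrays higher by a mean of 0.44 (SE 0.20, 95% CI -0.04 to 0.92, limma adjusted p = 0.94). The controls of that line differed from each other by 0.57, more than the difference between the groups, and without Derlin-2 control 2 the difference was 0.16. The Derlin-1 difference minus the Derlin-2 difference was -0.53 (SE 0.28, 95% CI -1.21 to 0.16, limma adjusted p = 0.874). A second probe (A_52_P625527) overlapped between the groups of both lines, with differences of -0.04 and 0.18 (SE 0.20 in each line), and the third (A_55_P2742038) likewise, with -0.01 and 0.24 (SE 0.21 in each line).

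Gja1 and Gjb6 encode connexin 43 and connexin 30, which form the gap junctions between astrocytes. The brightest Gja1 probe (A_52_P174915) read 10.45 and 10.80 in Derlin-1 controls, 10.66 and 10.75 in Derlin-1 KO, 9.99 and 9.81 in Derlin-2 controls and 10.13 and 9.99 in Derlin-2 KO. The groups overlapped in both lines, with differences of 0.08 (SE 0.15, 95% CI -0.28 to 0.45) and 0.16 (SE 0.15, 95% CI -0.21 to 0.53). In the Derlin-2 line 2 dimmer Gja1 probes were higher on both KO arrays than on both controls, A_55_P2800487 with 0.28 (SE 0.14, 95% CI -0.05 to 0.61) and A_55_P2741907 with 0.31 (SE 0.11, 95% CI 0.05 to 0.57, limma adjusted p = 0.833). In the Derlin-1 line the same probes differed by -0.06 (SE 0.14) and 0.02 (SE 0.11). The other tested Gja1 probes (A_55_P2741897 and A_55_P2741895) overlapped in both lines and had standard errors of 0.33 and 0.32. The brightest Gjb6 probe (A_52_P482251) read 12.52 and 12.45 in Derlin-1 controls and 12.49 and 12.53 in Derlin-1 KO, a difference of 0.02 (SE 0.13). Derlin-2 controls read 12.39 and 12.71 and Derlin-2 KO arrays 12.22 and 12.34, with both KO arrays below both controls. The mean difference was -0.27 (SE 0.13, 95% CI -0.60 to 0.06), and -0.11 without Derlin-2 control 2. The second Gjb6 probe (A_55_P2934160) had differences of -0.36 and 0.03 (SE 0.34 in each line). The first probe was near 0 in the Derlin-1 line and the second in the Derlin-2 line, so their signs were not compared.

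Sox9 encodes a transcription factor that astrocytes and neural stem cells share. Its brighter probe (A_55_P2798454) read 9.38 and 9.40 in Derlin-1 controls and 9.31 and 9.26 in Derlin-1 KO, with both KO arrays below both controls and a mean difference of -0.11 (SE 0.14, 95% CI -0.44 to 0.22). It read 9.50 and 9.69 in Derlin-2 controls and 10.05 and 9.75 in Derlin-2 KO, with both KO arrays higher by 0.30 (SE 0.14, 95% CI -0.03 to 0.63, limma adjusted p = 0.94), and by 0.15 without Derlin-2 KO 1. The Derlin-1 difference minus the Derlin-2 difference was -0.41 (SE 0.19, 95% CI -0.88 to 0.06, limma adjusted p = 0.856). The dimmer probe (A_55_P2745144) did not follow: both KO arrays were higher in the Derlin-1 line, by 0.20 (SE 0.15, 95% CI -0.18 to 0.57), and the Derlin-2 groups overlapped, with -0.01 (SE 0.15, 95% CI -0.38 to 0.37).

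**Figure D2:**
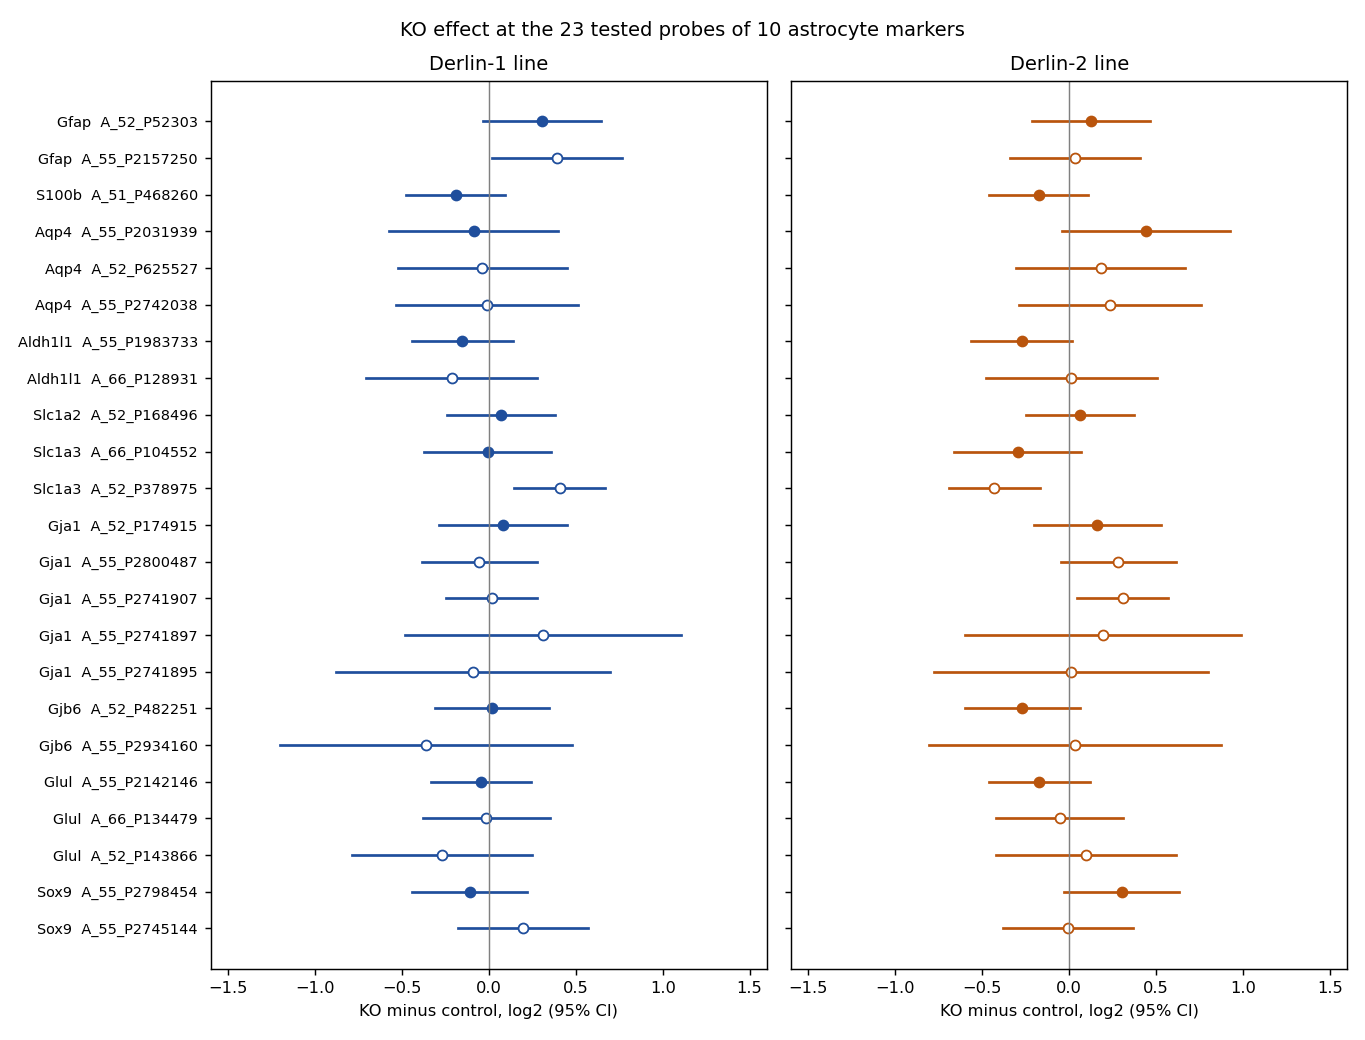
KO minus control on the log2 scale (horizontal axis) at each of the 23 tested probes of the 10 markers in the Derlin-1 line (left) and the Derlin-2 line (right), with 95% confidence intervals from limma. Filled circles are the brightest probe of a gene and open circles its other probes. In the Derlin-1 line the intervals of the second Gfap and second Slc1a3 probes exclude 0, and in the Derlin-2 line those of the second Slc1a3 probe and of the Gja1 probe A_55_P2741907, all before adjustment.

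The 95% intervals of the brightest probes, before any adjustment, show what size of difference these arrays left unresolved. In the Derlin-1 line they reached from 0.67-fold to 1.56-fold of control over the 10 markers, and in the Derlin-2 line from 0.63-fold to 1.90-fold. Of the 23 tested probes, 6 in each line had a difference larger than the wider gap between 2 arrays of a group in that line, beside 23.7% of all probes for Derlin-1 and 19.6% for Derlin-2. Counted by brightest probes, 4 markers in the Derlin-1 line did so (Gfap, Aqp4, Aldh1l1 and Sox9; 22.4% of all genes) and 3 in the Derlin-2 line (S100b, Aldh1l1 and Sox9; 20.6% of all genes).

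Of the 6 untested probes, 4 (1 each of Aqp4 and Slc1a2 and 2 of Gja1) stayed at background throughout. Another Slc1a3 probe (A_55_P2714110) was well above background on Derlin-2 KO 2 alone, at 4.95, while the other 7 arrays read 1.75 to 1.79. The Gja1 probe A_55_P2741901 was well above background on 2 arrays, Derlin-1 control 2 at 4.81 and Derlin-2 KO 2 at 5.16. No group measured these probes on both of its arrays, so no difference is given for them.

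The levels of both lines are set side by side without a test, since each line had its own slide. The order of the 4 groups for Gfap was Derlin-1 KO (13.37 ± 0.08, mean ± SD, n = 2), Derlin-1 control (13.07 ± 0.05), Derlin-2 KO (12.49 ± 0.08) and Derlin-2 control (12.36 ± 0.23), and the last 2 overlapped. The other Gfap probe also put all arrays of the Derlin-1 line above all arrays of the Derlin-2 line. Gja1 averaged 10.63 ± 0.25 in Derlin-1 controls and 9.90 ± 0.12 in Derlin-2 controls by its brightest probe, whereas A_55_P2800487 averaged 8.57 ± 0.22 and 8.68 ± 0.01. Sox9 was higher on all 4 arrays of the Derlin-2 line than on all 4 of the Derlin-1 line by both probes. For Glul, Slc1a2 and Gjb6 the control arrays of the lines overlapped.

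Beyond the 10 markers, 110 other genes of astrocyte function were followed in 5 lists, and all but 3 of them had a tested probe. None passed the adjusted threshold in either line. In Derlin-1 KO 43 were higher and 64 lower (59.8% lower, against 55.9% of all genes), with a median of -0.05. In Derlin-2 KO 38 were higher and 69 lower (64.5% lower, against 47.7% of all genes), with a median of -0.05. At an unadjusted p under 0.05, 3 were higher and 1 lower in Derlin-1 KO, where 2.51% and 1.74% of all genes were. In Derlin-2 KO 3 were higher and 7 lower, where 2.41% and 2.24% of all genes were. The genes named for each list are those with the smallest limma p in a line, whether or not they passed.

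Of the 16 genes of ion, water and solute transport, 9 were lower in Derlin-1 KO and 11 in Derlin-2 KO, with medians of -0.03 and -0.09. Slc38a3, a transporter through which astrocytes pass glutamine, read 10.36 and 10.74 in Derlin-2 controls and 10.03 and 9.98 in Derlin-2 KO, a difference of -0.55 (SE 0.20, limma adjusted p = 0.853), beside -0.27 (SE 0.20) for Derlin-1. Slc7a11, the cystine-glutamate exchanger, differed by 0.55 (SE 0.20, limma adjusted p = 0.862) for Derlin-2 and 0.16 (SE 0.20) for Derlin-1. Slc16a1, the lactate transporter MCT1, was below its controls on both Derlin-1 KO arrays and above them on both Derlin-2 KO arrays, with differences of -0.15 (SE 0.11) and 0.26 (SE 0.11). Slc6a11, the GABA transporter GAT3, was below its controls on the KO arrays of both lines, with differences of -0.25 (SE 0.12) and -0.14 (SE 0.12).

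Of the 17 genes of astrocyte metabolism, 12 were lower in Derlin-1 KO and 14 in Derlin-2 KO, with medians of -0.09 and -0.13. Lcat, which esterifies cholesterol on the lipoproteins that astrocytes secrete, read 10.17 and 10.44 in Derlin-1 controls, 10.02 and 10.16 in Derlin-1 KO, 10.27 and 11.04 in Derlin-2 controls and 9.88 and 9.73 in Derlin-2 KO. It was lower on all KO arrays than on the controls of their line, with differences of -0.22 (SE 0.26) and -0.85 (SE 0.26, limma adjusted p = 0.738), and of -0.46 for Derlin-2 without Derlin-2 control 2. Mt2, a metallothionein, differed by -0.26 (SE 0.26) and -0.55 (SE 0.26), and Prodh, a proline dehydrogenase, by 0.05 (SE 0.11) and -0.30 (SE 0.11). In the Derlin-1 line the smallest p were those of Maob, Gldc and Slc27a1, with differences of -0.23 (SE 0.16), -0.24 (SE 0.21) and -0.45 (SE 0.41). They encode monoamine oxidase B, a subunit of the glycine cleavage system and a fatty acid transporter. Slc27a1 was 0.22 without Derlin-1 control 2.

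Of the 25 receptors and secreted factors, 17 were lower in Derlin-1 KO and 18 in Derlin-2 KO, with medians of -0.07 and -0.11. Pla2g7, a secreted phospholipase that hydrolyses platelet-activating factor, read 14.19 and 14.39 in Derlin-1 controls, 13.96 and 13.95 in Derlin-1 KO, 14.29 and 14.72 in Derlin-2 controls and 14.09 and 13.95 in Derlin-2 KO. Its differences were -0.33 (SE 0.17) and -0.49 (SE 0.17), with a mean over both lines of -0.41 (SE 0.12, 95% CI -0.70 to -0.12, limma adjusted p = 0.9998). Gpr37l1, an orphan receptor of astrocytes, differed by -0.37 (SE 0.14, limma adjusted p = 0.9999) for Derlin-1 and -0.12 (SE 0.14) for Derlin-2. Mertk, a receptor used in the engulfment of synapses, and Cst3, the secreted protease inhibitor cystatin C, differed by -0.52 (SE 0.18, limma adjusted p = 0.842) and -0.31 (SE 0.12) in the Derlin-2 line and by 0.02 and -0.18 in the Derlin-1 line. Ttyh1, a membrane protein of glia, differed by -0.16 (SE 0.10) for Derlin-1 and -0.08 (SE 0.10) for Derlin-2.

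The 14 transcription factors and Notch genes, which act in stem cells as well, were 7 higher and 7 lower in Derlin-1 KO and 9 higher and 5 lower in Derlin-2 KO, with medians of -0.0010 and 0.04. Notch1, the receptor that keeps neural stem cells undifferentiated, read 11.93 and 12.77 in Derlin-1 controls and 13.15 and 13.09 in Derlin-1 KO. That difference of 0.77 (SE 0.30) was smaller than the gap of 0.85 between the control arrays. Nfia, a factor that starts astrocyte development, differed by 0.31 (SE 0.12, limma adjusted p = 0.89) for Derlin-2 and 0.08 (SE 0.12) for Derlin-1. The other genes with the smallest p were Id3 (-0.21) and Zbtb20 (0.11) in the Derlin-1 line and Hes5 (0.36) and Sox2 (0.13) in the Derlin-2 line, with standard errors of 0.14, 0.11, 0.30 and 0.13, and Hes5 was -0.12 without Derlin-2 control 2.

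Of the 38 genes linked to reactive astrocytes 35 were tested, and 16 were higher and 19 lower in Derlin-1 KO, 14 higher and 21 lower in Derlin-2 KO, with medians of -0.02 and -0.01. The Derlin-1 median was 0.05 after 75th percentile scaling and 0.04 in the deposited values, so it had no settled sign. Cd44, a hyaluronan receptor found on reactive astrocytes and on other cells, read 7.04 and 6.66 in Derlin-1 controls, 7.21 and 7.61 in Derlin-1 KO, 7.50 and 7.34 in Derlin-2 controls and 8.02 and 7.99 in Derlin-2 KO. All 4 KO arrays were above the controls of their line, with a mean difference over both lines of 0.58 (SE 0.13, 95% CI 0.25 to 0.90, limma adjusted p = 0.879). C4b, complement component 4, read 11.50 and 11.49 in Derlin-1 controls, 11.80 and 11.87 in Derlin-1 KO, 10.59 and 10.92 in Derlin-2 controls and 10.52 and 10.41 in Derlin-2 KO. Its differences were 0.34 (SE 0.13) and -0.29 (SE 0.13), with the KO arrays apart from the controls in both lines. The difference of these differences was 0.63 (SE 0.19, 95% CI 0.16 to 1.09, limma adjusted p = 0.757). Tm4sf1, a membrane protein also of endothelium, had 0.31 (SE 0.15) for Derlin-1, and Serpina3n, a secreted protease inhibitor, -0.23 (SE 0.11) for Derlin-2. Cxcl10, a chemokine named here for its size after its values were seen, had the lowest difference of the related genes in the Derlin-2 line, at -1.06 (SE 0.72).

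**Figure D3:**
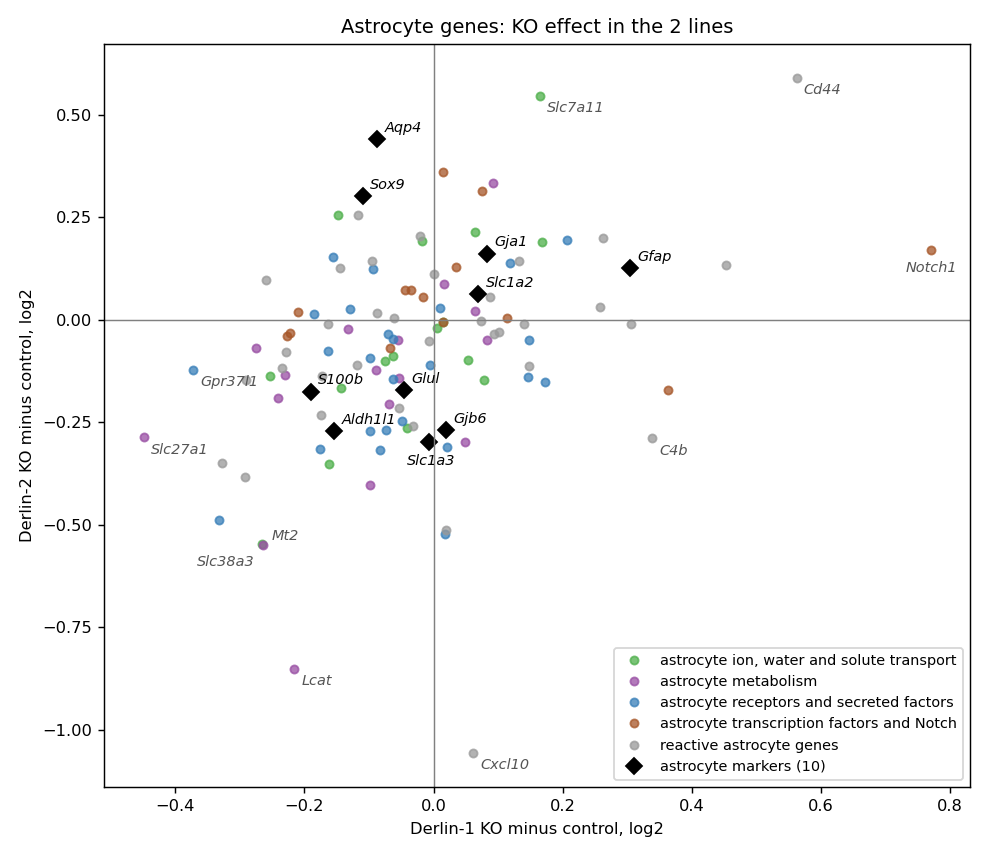
KO minus control on the log2 scale in the Derlin-1 line (horizontal axis) and in the Derlin-2 line (vertical axis), with 1 point a gene: black diamonds are the 10 markers and coloured circles the tested genes of the 5 related lists. S100b and Aldh1l1 lie in the lower left, Aqp4 and Sox9 in the upper left and Gfap in the upper right, while Lcat and Cxcl10 lie lowest in the Derlin-2 line and Cd44 lies highest in it.

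The lines share no arrays, and of the tested related genes 47 were lower in both lines and 21 higher in both, while 39 had opposite signs. Among all genes, 5320 of 19922 were lower in both and 4598 higher in both. Both KO arrays lay below both controls in both lines for 11 of the related genes (10.3%, against the 2.9% of all genes), a count made after the values were seen. These were Acsbg1, Aldoc, Lcat and Mt2 of metabolism, Hepacam, Mlc1 and Slc6a11 of transport, Cst3, Pla2g7 and Ttyh1 of the secreted factors and receptors, and Serpina3n of the reactive genes. Their mean differences over both lines lay between -0.53 (Lcat) and -0.08 (Hepacam). Hepacam and Mlc1 encode partners in one complex of astrocyte membranes, and Aldoc, the aldolase of astrocytes, read 17.70 and 17.71 in Derlin-1 controls, 17.62 and 17.70 in Derlin-1 KO, 17.78 and 17.86 in Derlin-2 controls and 17.70 and 17.65 in Derlin-2 KO. With the authors' deposited values the count was 7 (6.54%, against 1.75% of all genes), of which 6 were among the 11. With scaling to the 75th percentile it was 8 (7.48%, against 1.69%), also with 6 shared. Cd44 and Slc7a10, a serine transporter, lay above in both lines, where 2.85% of all genes did.

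Markers of the other cells that the dissected tissue could hold were measured in 10 lists, and no gene of any of them passed the adjusted threshold. Of all genes, 55.9% were lower in Derlin-1 KO and 47.7% in Derlin-2 KO. In Derlin-1 KO 12 of 13 microglial genes were lower (median -0.12), 7 of 9 choroid plexus genes were higher (median 0.27, and -0.09 without Derlin-1 KO 2) and all 6 tested blood genes were lower (median -0.50). The summed linear signal of the blood genes was 54721 and 118780 in the Derlin-1 controls and 55977 and 61677 in the KO arrays, so Derlin-1 control 2 stood apart, and without it the median was 0.06. Of the 10 genes of mature granule neurons, the main neurons of the dentate gyrus, 7 were lower in Derlin-1 KO (median -0.18, and -0.02 without Derlin-1 KO 2). At an unadjusted p under 0.05, 3 of these were lower, where 1.74% of all genes were. The mean log2 signal of the 10 granule neuron genes was 12.80 and 12.48 in the Derlin-1 controls and 12.53 and 12.25 in the KO arrays. That of the CA pyramidal neuron genes was 10.24 and 10.77 and 10.28 and 10.73, so arrays with the same replicate number moved together in both lists. In Derlin-2 KO 8 of 9 genes of newborn neurons were higher (median 0.28), 10 of 12 oligodendrocyte genes were higher (median 0.11), 9 of 10 interneuron genes were lower (median -0.13) and all 6 blood genes were lower (median -0.16). At an unadjusted p under 0.05, 3 newborn neuron genes and 2 of 8 oligodendrocyte precursor genes were higher in Derlin-2 KO (2.41% of all genes). At this level 2 interneuron genes were lower (2.24% of all genes). In Derlin-1 KO 1 gene each of oligodendrocytes, interneurons and choroid plexus was higher (2.51% of all genes), and 1 each of interneurons and blood lower. The summed signal of the newborn neuron genes was 50442 and 44203 in the Derlin-2 controls and 49935 and 48152 in the KO arrays. The medians of the remaining lists lay between -0.09 (newborn neurons, Derlin-1 line) and 0.21 (choroid plexus, Derlin-2 line). The part of these cells in the differences of the astrocyte genes was not tested. Over the 10 astrocyte markers, the summed signal was 106499 and 114940 in Derlin-1 controls, 109005 and 107386 in Derlin-1 KO, 108192 and 108374 in Derlin-2 controls and 102455 and 93702 in Derlin-2 KO. Both Derlin-2 KO arrays had a lower sum than both of their controls, and the Derlin-1 groups overlapped. A linear sum weighs the brightest probes most, above all Glul (15.49 and 15.35 in Derlin-2 controls, 15.35 and 15.15 in Derlin-2 KO). Counted by gene, 5 of the 10 markers were higher and 5 lower in Derlin-2 KO, so the sum is not a shared drop.

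**Figure D4:**
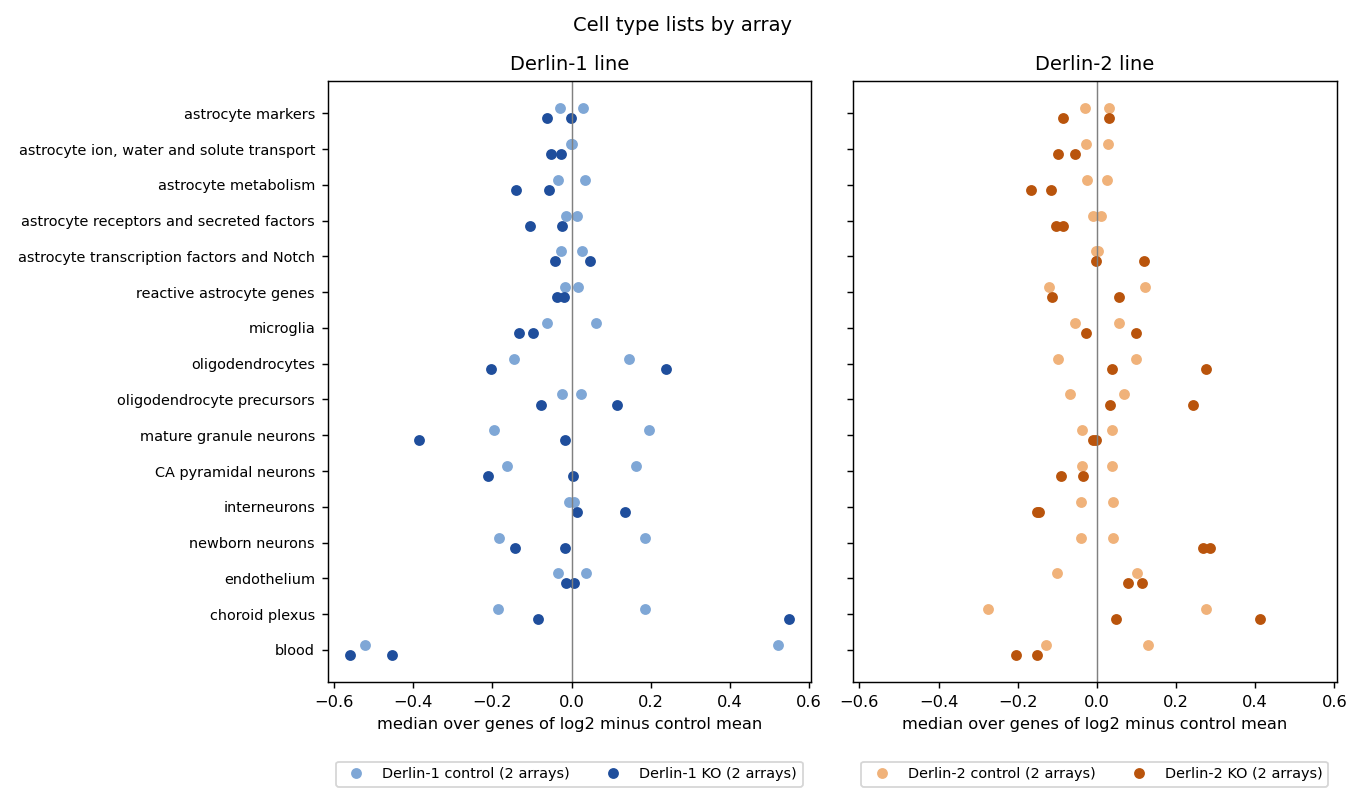
Median over the genes of each list of the log2 signal minus the mean of the line's controls (horizontal axis, the same in both panels), with 1 dot an array, for the Derlin-1 line (left) and the Derlin-2 line (right). The control dots of a list mirror each other around 0, since each gene is taken relative to its control mean. The KO dots of the metabolism, transport and receptor lists of astrocytes lie left of the controls in both lines. For transport in the Derlin-1 line the median difference was -0.03, beside -0.02 over all genes. The KO dots of the 10 markers overlap with the controls, and the lists of newborn neurons and interneurons stand apart in Derlin-2 KO.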

How the data were processed

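RNA of the dentate gyrus was hybridised to 8 one-colour Agilent mouse expression arrays, 2 in each of 4 groups. Per the file headers, the deposited scanner files came from Agilent Feature Extraction 10.7.1.1 and give the processed signal intensity, which is background-subtracted and not normalized between arrays. The authors also deposited normalized log2 values of the same arrays, made by quantile normalization in GeneSpring, and probe tables whose fold change columns hold their own comparisons. Of these tables the annotation was used, and the normalized log2 values served as an alternative. The fold change columns were not used.

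The processed signal was set to at least 1, turned to log2 after spots flagged as outliers were left out, and quantile-normalized over the 8 arrays. Replicate spots of a probe were averaged. Probes well above background on both arrays of at least 1 group were kept (40001), and the brightest kept probe stood for a gene. Group means were fitted with limma 3.58.1 in R 4.3.3, with 4 contrasts (each line, their mean and their difference) and Benjamini-Hochberg adjustment over all kept probes at 0.05. The fit was tested on simulated data. A sample's group came from its title. Arrays carry no read depth, so their number limits the precision.

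The members and lists were chosen with earlier results of these data known, and the lists do not serve as independent support. The genes named for each related list were the 3 with the smallest p in each line. Alternatives were scaling to the 75th percentile, normexp (offset 50, on the median spot signal, since the files used here give no mean signal), the deposited values, other filters, outlier spots kept, the last eighth of the array's rows left out, a fit on 1 line, a replicate block, the mean over probes and each array left out.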

Additional observations from a re-analysis of the deposited data

Results flagged for a closer look

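Marker probes, and named genes of the related lists, whose KO arrays lay apart from the controls in opposite directions in the 2 lines are given with the Derlin-1 difference minus the Derlin-2 difference on the log2 scale and its limma test. For Aqp4 (A_55_P2031939) this was -0.53 (SE 0.28, 95% CI -1.21 to 0.16), with adjusted p = 0.874. For Sox9 (A_55_P2798454) it was -0.41 (SE 0.19, 95% CI -0.88 to 0.06), with adjusted p = 0.856. For the second Slc1a3 probe (A_52_P378975) it was 0.84 (SE 0.15, 95% CI 0.47 to 1.20), with adjusted p = 0.531. For Slc16a1 it was -0.40 (SE 0.15), with adjusted p = 0.836, and for C4b it was 0.63 (SE 0.19), with adjusted p = 0.757. Among the tested related genes 4 lay apart in this way (3.74%), the others being Atp1b2, a subunit of the sodium pump, and Clu, the chaperone clusterin, both named after their values were seen, with 0.22 (SE 0.15) and 0.29 (SE 0.15). None of these passed the adjusted threshold, and 5.64% of all genes lay apart in opposite directions. For Aqp4, Sox9 and Slc1a3 another probe of the gene did not show the pattern.

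Signal was also seen at marker probes that were not tested. The Slc1a3 probe A_55_P2714110 read 4.95 and the Gja1 probe A_55_P2741901 read 5.16 on Derlin-2 KO 2, both well above background there and on no control array of that line. Both were at background on the other KO array of the line, so within this line they rest on 1 array. The Gja1 probe was also well above background on Derlin-1 control 2, at 4.81.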

How the results depend on the processing

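No marker probe passed the adjusted threshold in either line under any alternative, arrays left out included. The counts of probes called over the whole array were less stable. For the Derlin-2 line the count of 18 became 2 with normexp, 2 with only probes well above background on all arrays, 4 without the last eighth of the array's rows, 29 without the filter and 0 when each line was fitted alone. For the mean of the lines the count of 6 became 2 with the deposited values and 0 with normexp, with only probes well above background on all arrays and without the last eighth. For the difference between the lines the count of 3 became 5 with 75th percentile scaling and 0 with normexp, without the filter, with only probes well above background on all arrays and without the last eighth.

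With the replicate number as a block, 0 probes were called in every contrast. The deviations of samples with the same number correlated at 0.268 for Derlin-1 and -0.098 for Derlin-2, and the labels do not say that a number marks a shared animal or batch, so the numbers were not taken to pair the samples.

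Some differences turned sign, and not all of these had been near 0. With 75th percentile scaling, the Derlin-1 differences were 0.095 (A_55_P2742038, Aqp4), 0.012 (A_55_P2800487, Gja1) and 0.088 (A_55_P2741895, Gja1), the Derlin-2 differences -0.022 (A_66_P128931, Aldh1l1) and -0.044 (A_55_P2741895), and the difference between the lines of Slc1a2 -0.050. With the deposited values, the same results were 0.084, 0.00071, 0.077, -0.021, -0.042 and -0.063, and Gjb6 was -0.0074 in the Derlin-1 line. With normexp, Aqp4 was 0.0029 and A_55_P2741907 (Gja1) -0.021 in the Derlin-1 line, and A_66_P128931, A_55_P2741895 and A_55_P2745144 (Sox9) were -0.027, -0.039 and 0.035 in the Derlin-2 line. With outlier spots kept, Slc1a3 was 0.0016 for Derlin-1 and A_55_P2745144 0.0012 for Derlin-2. With the mean over all probes of a gene, Slc1a3, Gjb6 and Sox9 were 0.20, -0.17 and 0.044 in the Derlin-1 line. By the brightest probe they were -0.01, 0.02 and -0.11. The differences between the lines of Aldh1l1, Gjb6 and Glul were -0.055, -0.053 and -0.066 with the mean over probes. By the brightest probe these were 0.12, 0.29 and 0.13.

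Of the list medians, that of the reactive genes in the Derlin-1 line was 0.051 with 75th percentile scaling, 0.041 with the deposited values, -0.0030 without the filter and 0.00031 with the mean over probes. That of the 5 lists together in the Derlin-1 line was -0.017, -0.028 and, with normexp, -0.028. The receptors and secreted factors had -0.092, -0.090 and -0.092 in the Derlin-2 line. Transport had -0.0068 with normexp in the Derlin-1 line, newborn neurons 0.23 with normexp and metabolism -0.058 with the mean over probes in the Derlin-2 line, and interneurons 0.17 and -0.18 without the last eighth in the 2 lines. The count of 11 related genes below in both lines, tried under 4 settings chosen after seeing the data, was 7 with the deposited values.

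With each array left out in turn, 0 to 1 probes were called in the Derlin-1 line, 4 to 55 in the Derlin-2 line, 0 to 25 for the mean and 0 to 21 for the difference. The Derlin-2 count was lowest without either Derlin-1 control array or Derlin-2 KO 2 and highest without Derlin-2 control 1. The marker median ranged over -0.093 to -0.0017 and -0.085 to 0.031 in the 2 lines. The Derlin-1 medians ranged over -0.065 to -0.033 for the 5 lists, -0.053 to -0.026 for transport, -0.11 to -0.024 for receptors, -0.036 to 0.056 for reactive genes, -0.19 to -0.070 for microglia, -0.21 to 0.30 for CA pyramidal neurons, -0.013 to 0.13 for interneurons, -0.14 to -0.042 for metabolism, -0.042 to 0.046 for transcription factors, -0.20 to 0.24 for oligodendrocytes, -0.44 to -0.017 for mature granule neurons, -0.19 to 0.070 for newborn neurons, -0.085 to 0.61 for choroid plexus, -0.078 to 0.11 for oligodendrocyte precursors, -0.037 to 0.038 for endothelium and -1.0 to 0.059 for blood. The Derlin-2 medians ranged over -0.10 to -0.0097 for the 5 lists, -0.16 to -0.13 for interneurons, 0.033 to 0.26 for oligodendrocyte precursors, 0.050 to 0.17 for endothelium, 0.024 to 0.41 for choroid plexus, -0.10 to -0.055 for transport, -0.18 to -0.10 for metabolism, -0.13 to -0.087 for receptors, -0.0035 to 0.12 for transcription factors, -0.20 to 0.10 for reactive genes, -0.028 to 0.11 for microglia, 0.0022 to 0.28 for oligodendrocytes, -0.067 to 0.013 for mature granule neurons, -0.17 to -0.035 for CA pyramidal neurons, 0.13 to 0.35 for newborn neurons and -0.31 to 0.0072 for blood. Single differences that turned sign ranged in the Derlin-1 line over -0.023 to 0.16 for Slc1a2, -0.037 to 0.023 for Slc1a3, -0.091 to 0.26 for Gja1, -0.015 to 0.055 for Gjb6, -0.10 to 0.010 for Glul, -1.12 to 0.22 for Slc27a1, -0.12 to 0.044 for Aqp4 A_52_P625527, -0.26 to 0.23 for Aqp4 A_55_P2742038, -0.21 to 0.10 for Gja1 A_55_P2800487, -0.043 to 0.074 for Gja1 A_55_P2741907, -0.28 to 0.10 for Gja1 A_55_P2741895 and -0.12 to 0.093 for Glul A_66_P134479. In the Derlin-2 line they ranged over -0.039 to 0.29 for Gfap, -0.044 to 0.17 for Slc1a2, -0.12 to 0.84 for Hes5, -0.18 to 0.25 for Gfap A_55_P2157250, -0.12 to 0.48 for Aqp4 A_52_P625527, -0.20 to 0.22 for Aldh1l1 A_66_P128931, -0.15 to 0.54 for Gja1 A_55_P2741897, -0.44 to 0.46 for Gja1 A_55_P2741895, -0.35 to 0.42 for Gjb6 A_55_P2934160, -0.24 to 0.13 for Glul A_66_P134479, -0.10 to 0.30 for Glul A_52_P143866 and -0.17 to 0.16 for Sox9 A_55_P2745144. The differences between the lines that turned sign ranged over -0.14 to 0.11 for S100b, -0.10 to 0.11 for Slc1a2, -0.25 to 0.095 for Gja1 and -0.011 to 0.25 for Aldh1l1. Dimmer marker probes also kept their sign but moved by over 1.5 times. In the Derlin-1 line these were Aldh1l1 A_66_P128931 (-0.36 to -0.073), Gja1 A_55_P2741897 (0.0044 to 0.62), Gjb6 A_55_P2934160 (-0.69 to -0.025), Glul A_52_P143866 (-0.46 to -0.078) and Sox9 A_55_P2745144 (0.064 to 0.33). In the Derlin-2 line it was Aqp4 A_55_P2742038 (0.0026 to 0.47). Differences that kept their sign but moved by over 1.5 times ranged in the Derlin-1 line over -0.32 to -0.062 for S100b, -0.36 to -0.15 for Slc6a11, -0.50 to -0.030 for Slc38a3, -0.37 to -0.11 for Gldc, -0.24 to -0.085 for Ttyh1, 0.35 to 1.19 for Notch1, 0.020 to 0.21 for Zbtb20, 0.36 to 0.76 for Cd44 and 0.13 to 0.49 for Tm4sf1, in the Derlin-2 line over 0.16 to 0.72 for Aqp4, -0.40 to -0.14 for Aldh1l1, -0.48 to -0.12 for Slc1a3, 0.074 to 0.25 for Gja1, -0.43 to -0.11 for Gjb6, -0.27 to -0.071 for Glul, 0.15 to 0.45 for Sox9, -0.74 to -0.36 for Slc38a3, 0.32 to 0.77 for Slc7a11, 0.15 to 0.36 for Slc16a1, -1.24 to -0.46 for Lcat, -0.90 to -0.20 for Mt2, -0.70 to -0.27 for Pla2g7, -0.79 to -0.25 for Mertk, 0.014 to 0.24 for Sox2, -0.45 to -0.12 for C4b and -0.32 to -0.14 for Serpina3n, and between the lines over 0.014 to 0.34 for Gfap, -0.81 to -0.24 for Aqp4, 0.11 to 0.47 for Slc1a3, 0.12 to 0.45 for Gjb6, 0.026 to 0.23 for Glul and -0.56 to -0.26 for Sox9.

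The cause of these shifts was not tested. The precision is that of 2 arrays in a group, and the brightest probe of each marker was well above background on every array.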
